A study of Mus musculus with 8 samples.

Results

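Meiotic recombination starts with programmed DNA double-strand breaks, and 6 genes needed to place, make or mend them were followed here in mouse testis: Spo11, Prdm9, Mei1, Mei4, Rec114 and Tex15. They were taken by name from the 54087 genes of the count tables, and all 6 had counts in all 8 libraries. Whole testes came from C57BL/6 males that were KO/KO or WT/WT for Dnmt3a, which encodes a de novo DNA methyltransferase. The 4 groups were KO at 25 days post partum (dpp), WT at 25 dpp, KO at 19 dpp and WT at 19 dpp, with 2 libraries each. The deleted part of Dnmt3a and the cells that lost it are not named in the labels, nor is it said whether the 2 libraries of a group came from separate animals, so the p-values below measure only the spread between libraries, which may be technical. Poly(A) RNA was read with a stranded kit.

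SPO11 is the catalytic subunit that cuts the DNA, by a reaction related to that of type II topoisomerases, and it stays bound to the broken ends until they are trimmed. REC114 and MEI4 form a complex on the chromosome axis together with IHO1, the product of Ccdc36, and MEI1 is also needed for the cut. In mice PRDM9 decides where breaks fall: its zinc fingers bind a DNA motif and its methyltransferase domain marks the neighbouring nucleosomes at lysine residues of histone H3. TEX15 is needed for loading of the recombinases onto the broken ends and also acts in the silencing of transposons in male germ cells. Breaks form at leptotene, early in the first meiotic prophase, and in the first wave of mouse spermatogenesis the germ cells of juvenile testes pass through prophase together, so that the make-up of a testis changes from day to day.

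Gene counts per library were between 22515812 and 50445334. Dnmt3a itself had 76.9 and 67.2 CPM, the count scaled to library size with TMM factors, in KO against 48.7 and 70.0 CPM in WT at 25 dpp, and 114 and 112 CPM in KO against 147 and 141 CPM in WT at 19 dpp. It passed the test at neither age (adjusted p = 0.204 at 25 dpp and 0.201 at 19 dpp), and a sum over the gene checks nothing when the deleted part is not given. The defining markers of testis were present, with all 14 Sertoli cell, 10 spermatogonial and 14 prophase markers counted in each group. The summed level of the 14 prophase markers, such as Sycp1 and Sycp3 of the synaptonemal complex, was 2563 and 3470 CPM in KO against 4041 and 3977 CPM in WT at 25 dpp. At 19 dpp it was 493 and 904 CPM in KO against 2428 and 2885 CPM in WT. The Sertoli markers summed to 7873 and 6850 CPM in KO against 2337 and 2986 CPM in WT at 25 dpp, and to 9837 and 8863 CPM in KO against 5368 and 4633 CPM in WT at 19 dpp. Spermatid markers summed to 8.25 and 12.1 CPM in KO, with 3 of 11 at 0 in both libraries, against 3323 and 523 CPM in WT at 25 dpp, and were under 10 CPM in each library at 19 dpp. Leydig cell markers summed to 26.4 and 52.4 CPM in KO against 261 and 397 CPM in WT at 25 dpp, and to 383 and 372 CPM in KO against 72.4 and 285 CPM in WT at 19 dpp. The part of these cell types in the levels below was not tested. In RNA from whole tissue, fewer cells of a type and less RNA per cell cannot be told apart.

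The 6 genes differed widely in level when the mean CPM was divided by the exon length of the gene. At 25 dpp Tex15 was the highest in KO, at 53.5 ± 13.8 CPM per kilobase, against 22.4 ± 1.13 in WT (SD, n = 2 each). In WT at 25 dpp Spo11 stood above it, at 24.8 ± 0.569 CPM per kilobase, while in KO Spo11 reached 9.54 ± 0.501. Prdm9 had 21.8 ± 3.78 CPM per kilobase in KO and 5.18 ± 0.508 in WT at that age. Mei4 was the lowest of the 6 in every group, between 0.434 CPM per kilobase in WT at 25 dpp and 1.12 in KO at 25 dpp. Mei4 and Rec114 therefore rest on few reads, 35 to 147 counts per library for Mei4 and 68 to 297 for Rec114, against 3878 to 17145 for Tex15.

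**Figure D1:**
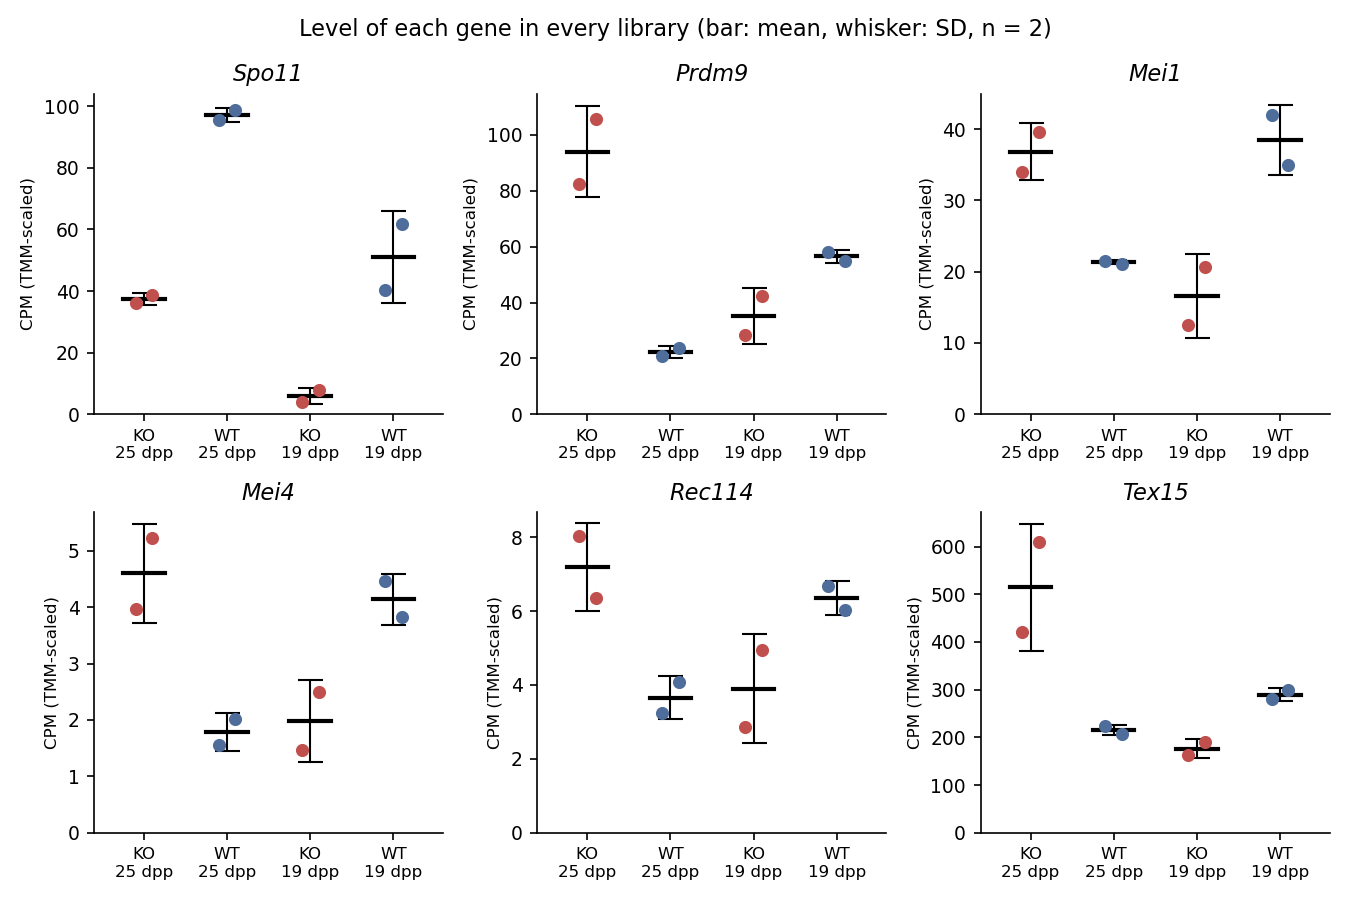
Level of each of the 6 genes in CPM (linear axis from 0, TMM-scaled) in the 8 libraries, with KO in red and WT in blue; points are libraries, bars are means and whiskers are SD (n = 2). Spo11 is highest in WT at 25 dpp (95.5 and 98.7 CPM), whereas Prdm9 and Tex15 are highest in KO at 25 dpp.

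Spo11 lies at chr2:172977700-172993576 (GRCm38, plus strand). It had 36.0 and 38.8 CPM in KO against 95.5 and 98.7 CPM in WT at 25 dpp, and 4.11 and 7.87 CPM in KO against 40.5 and 61.7 CPM in WT at 19 dpp. The KO libraries were below the WT libraries at both ages, and its 4 groups ran from WT at 25 dpp through WT at 19 dpp and KO at 25 dpp to KO at 19 dpp with no overlap between neighbours.

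Prdm9 lies at chr17:15543079-15564354 (minus strand). It had 82.5 and 105.6 CPM in KO against 20.8 and 23.9 CPM in WT at 25 dpp, and 28.2 and 42.4 CPM in KO against 58.3 and 54.8 CPM in WT at 19 dpp. The libraries did not overlap at either age, but KO was above WT at 25 dpp and below it at 19 dpp. KO at 25 dpp was the highest of the 4 groups and WT at 25 dpp the lowest, again with no overlap between neighbours.

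Mei1, at chr15:82069996-82126814 (plus strand), had 34.0 and 39.6 CPM in KO against 21.6 and 21.1 CPM in WT at 25 dpp. At 19 dpp it had 12.5 and 20.7 CPM in KO against 41.9 and 35.0 CPM in WT. KO at 25 dpp and WT at 19 dpp overlapped at the top of the order, and KO at 19 dpp was the lowest group.

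Mei4, at chr9:81863670-82206007 (plus strand), had 3.98 and 5.22 CPM in KO against 1.55 and 2.02 CPM in WT at 25 dpp, and 1.47 and 2.50 CPM in KO against 4.47 and 3.82 CPM in WT at 19 dpp. Rec114, at chr9:58652850-58743964 (minus strand), had 8.03 and 6.36 CPM in KO against 3.25 and 4.07 CPM in WT at 25 dpp. At 19 dpp Rec114 had 2.85 and 4.94 CPM in KO against 6.68 and 6.04 CPM in WT. These partners in 1 complex had the same order of groups, with KO at 25 dpp and WT at 19 dpp overlapping at the top and KO at 19 dpp and WT at 25 dpp overlapping at the bottom. The 3′ end of Rec114 overlaps Nptn, a gene on the opposite strand with 2148 to 4222 counts per library. Whether the counting used strand is not given in the sources used here, so the level of Rec114 is uncertain.

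Tex15, at chr8:33516738-33585582 (plus strand), had 420.5 and 608.8 CPM in KO against 223 and 208 CPM in WT at 25 dpp. At 19 dpp it had 163 and 190 CPM in KO against 280 and 299 CPM in WT. It was highest in KO at 25 dpp and lowest in KO at 19 dpp, with the WT groups between them and no overlap between neighbours.

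Promoter windows from RefSeq (GRCm38.p6) were matched by symbol for 4 of the 6 genes, Prdm9, Mei1, Mei4 and Rec114; of the 2 Prdm9 windows the one at the GENCODE start was used. They were read because 5 of the 6 genes had similar profiles over the libraries, and 3 of these are shown: Prdm9, which had the largest change of the 5 at 25 dpp, and the partners Mei4 and Rec114. Each holds the 250 bases before the RefSeq start site, read 5′ to 3′ on the strand of the gene, with capitals for the motif letters that were found. The 4 motifs searched on both strands were CNCCTCAG of STRA8, CAACNG or TAACNG of the MYB family, TCCCGC of E2F, and the E box CACGTG.
Prdm9 (chr17:15564355-15564604, minus strand): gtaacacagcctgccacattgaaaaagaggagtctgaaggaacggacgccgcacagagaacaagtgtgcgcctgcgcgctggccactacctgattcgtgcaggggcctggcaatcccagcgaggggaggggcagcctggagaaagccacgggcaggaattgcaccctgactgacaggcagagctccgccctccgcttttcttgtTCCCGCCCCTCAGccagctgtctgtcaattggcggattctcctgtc
Mei4 (chr9:81863420-81863669, plus strand): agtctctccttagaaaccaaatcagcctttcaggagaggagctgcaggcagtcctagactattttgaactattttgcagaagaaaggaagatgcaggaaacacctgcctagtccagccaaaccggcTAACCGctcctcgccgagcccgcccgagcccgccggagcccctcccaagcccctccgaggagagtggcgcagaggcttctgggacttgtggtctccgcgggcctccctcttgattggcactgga
Rec114 (chr9:58741560-58741809, minus strand): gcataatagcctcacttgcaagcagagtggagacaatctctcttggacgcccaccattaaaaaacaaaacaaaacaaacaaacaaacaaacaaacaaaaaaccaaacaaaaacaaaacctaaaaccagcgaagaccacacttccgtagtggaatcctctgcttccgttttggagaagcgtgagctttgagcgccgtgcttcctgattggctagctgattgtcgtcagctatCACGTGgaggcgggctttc
In Prdm9 the capitals start 46 bases before the start site with TCCCGC and run into CCCCTCAG, a form of CNCCTCAG that starts 41 bases before it and shares its first base with the E2F letters. A second form, CTCCTCAG, starts at base 15 after the start site. In Mei4 they mark TAACCG, and in Rec114 the E box CACGTG 19 bases before the start site. Past the printed bases, Rec114 also held the E2F letters on the other strand, GCGGGA, from base 27 after the start site, and the Mei1 window held CAACAG from base 9. Of 32851 RefSeq windows of 300 bases, 7.94% held CNCCTCAG, 49.7% a MYB form, 20.0% TCCCGC and 7.15% CACGTG. The full windows of these 3 genes held 18, 16 and 12 CG dinucleotides in Prdm9, Mei4 and Rec114, against a median of 7 (quartiles 3 and 20) over all windows. The Rec114 start site in RefSeq lies inside the GENCODE span of the gene, and the Mei1 window, which held 8 CG dinucleotides, does so too. No binding or methylation was measured in these libraries, and letters in a window are not sites.

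The first question of the design was how KO differed from WT at each age. At 25 dpp Prdm9, Mei1, Mei4, Rec114 and Tex15 rose in KO and Spo11 fell, although with libraries scaled to the Sertoli markers Mei1, Mei4, Rec114 and Tex15 turned to lower in KO and lost the call, as did Prdm9, which stayed higher. All 6 genes had KO and WT libraries that did not overlap, but the share of all genes with no overlap was not counted. Over all 23353 genes tested at this age, 26.1% rose and 37.4% fell at an adjusted p under 0.05, so that the share of rises (5 of 6) was above the background and the share of falls (1 of 6) was not. All adjusted p-values are from edgeR's quasi-likelihood test with Benjamini-Hochberg adjustment over all genes tested. The median log2 fold change of the 6 genes was 1.12, against -0.12 over all genes.

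At 25 dpp Prdm9 had the largest difference, with a log2 fold change of KO over WT of 2.08 (SE 0.228, adjusted p = 4.20e-04). Tex15 had 1.26 (SE 0.186, adjusted p = 0.00108). Among the genes of the cutting complex, Mei4 changed by 1.36 (SE 0.361, adjusted p = 0.0119), Rec114 by 0.98 (SE 0.331, adjusted p = 0.0325) and Mei1 by 0.79 (SE 0.248, adjusted p = 0.0245). Spo11, whose product makes the cut, went the other way, with -1.38 (SE 0.308, adjusted p = 0.00624). Leaving out either library of either 25 dpp group ended the call of Mei1 (adjusted p 0.0519 to 0.111). The call of Rec114 ended without WT replicate 1, KO replicate 1 or KO replicate 2 (0.107, 0.154 and 0.0531), and that of Mei4 without KO replicate 2 (0.0642).

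At 19 dpp the KO and WT libraries of the 6 genes did not overlap either, again without a share over all genes. All 6 were lower in KO than in WT, and Spo11, Mei1 and Tex15 passed the test. That is 3 of 6 that fell, where 13.2% of all genes fell and 8.80% rose; no gene of the 6 rose. Scaling to the prophase markers turned the 5 genes other than Spo11 to higher in KO, as given further on. The largest difference was that of Spo11, with a log2 fold change of -3.08 (SE 0.333, adjusted p = 0.00714). Mei1 changed by -1.21 (SE 0.251, adjusted p = 0.0157) and Tex15 by -0.71 (SE 0.184, adjusted p = 0.0312). Mei4 had -1.05 (SE 0.360, adjusted p = 0.0739), Rec114 -0.70 (SE 0.331, adjusted p = 0.170) and Prdm9 -0.68 (SE 0.220, adjusted p = 0.0630), which did not pass. The 95% intervals of these 3 genes were -1.89 to -0.21 for Mei4, -1.47 to 0.07 for Rec114 and -1.19 to -0.17 for Prdm9.

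The calls at 19 dpp rested on KO replicate 1. Without it edgeR called 0 of the 6 genes (3 of 6 had an unadjusted p under 0.05) and 0 of all genes tested (5298 had an unadjusted p under 0.05). The adjusted p of Spo11 was then 0.0768 at a log2 fold change of -2.70, that of Mei1 0.102 and that of Tex15 0.207. The Wald test of DESeq2 on the same libraries, an alternative chosen after seeing the data, differed from edgeR in its calls. It too had a lone KO library at that age. Tex15 also lost its call without any of the other 3 libraries of that age (adjusted p 0.0601, 0.118 and 0.0728).

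**Figure D2:**
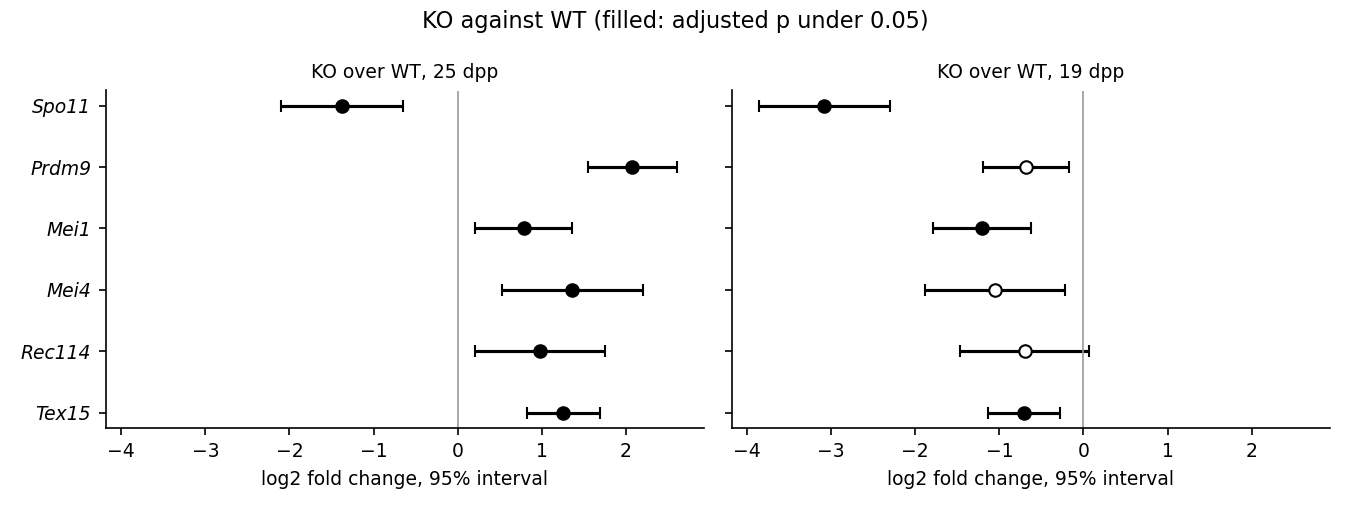
Log2 fold change of KO over WT for the 6 genes at 25 dpp (left) and 19 dpp (right), with 95% intervals; filled points have an adjusted p under 0.05 in edgeR. At 25 dpp Prdm9 (2.08) and 4 other genes lie right of 0 and Spo11 (-1.38) left of it, whereas at 19 dpp all 6 lie left of 0 under TMM scaling, Spo11 farthest (-3.08).

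The effect of KO was higher at 25 dpp than at 19 dpp for all 6 genes. The difference of the 2 log2 fold changes, tested as an interaction, passed for each of them, where 7.68% of all genes had a higher effect at 25 dpp and 11.4% a lower one. It was 2.75 for Prdm9 (SE 0.315, adjusted p = 0.00535) and 1.97 for Tex15 (SE 0.262, adjusted p = 0.00618). For Mei1 it was 2.00 (SE 0.352, adjusted p = 0.0117) and for Mei4 2.41 (SE 0.509, adjusted p = 0.0199). The values for Spo11 (1.71, SE 0.436, adjusted p = 0.0360) and Rec114 (1.68, SE 0.468, adjusted p = 0.0443) were closest to the threshold. Leaving out 1 library ended the call of Spo11 for any library but WT replicate 1 and KO replicate 2 at 19 dpp (adjusted p up to 0.0970), and that of Rec114 for any but KO replicate 2 at 19 dpp and WT replicate 2 at 25 dpp (up to 0.138). The call of Mei4 ended without KO replicate 1 at 19 dpp or either KO library at 25 dpp (0.0515 to 0.0729). All 6 differences kept their sign under both marker scalings, but 1 of 6 passed with Sertoli scaling and 0 of 6 in edgeR with prophase scaling, where Prdm9 alone had an unadjusted p under 0.05. Of all genes 0.591% were higher and 9.50% lower with Sertoli scaling, and 0.270% higher and 40.5% lower with prophase scaling. With prophase scaling the median difference over all genes was -1.60.

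The second question was how the genes changed between the ages within a genotype. In KO all 6 were higher at 25 dpp than at 19 dpp, and 4 of 6 rose, against 10.2% of all genes that rose and 8.87% that fell. With prophase scaling 5 of the 6 turned to lower at 25 dpp. Spo11 stayed higher under it (0.57) but lost its call (adjusted p = 0.255 in edgeR). Of all genes 1.94% rose and 74.6% fell under that scaling. Spo11 had 36.0 and 38.8 CPM in KO at 25 dpp against 4.11 and 7.87 CPM in KO at 19 dpp, a log2 fold change of 2.63 (SE 0.328, adjusted p = 0.00754). Tex15 rose by 1.54 (SE 0.187, adjusted p = 0.00725), Prdm9 by 1.41 (SE 0.223, adjusted p = 0.00925) and Mei1 by 1.15 (SE 0.250, adjusted p = 0.0210), as log2 values. Mei4 had 1.20 (adjusted p = 0.0545) and Rec114 0.88 (adjusted p = 0.104). Without KO replicate 1 at 19 dpp edgeR no longer called these 4 genes. Their log2 fold changes were then 2.25 for Spo11, 1.43 for Tex15, 1.15 for Prdm9 and 0.83 for Mei1. DESeq2 on the same libraries, with a lone KO library at 19 dpp, differed from edgeR in its calls. The call of Prdm9 also ended without KO replicate 2 at 25 dpp (adjusted p = 0.0594), and that of Mei1 without KO replicate 1 or 2 at 25 dpp (0.0604 and 0.111).

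In WT the 6 genes parted. Spo11 had 95.5 and 98.7 CPM at 25 dpp against 40.5 and 61.7 CPM at 19 dpp and rose, with a log2 fold change of 0.93 (SE 0.304, adjusted p = 0.0321). Prdm9 had 20.8 and 23.9 CPM at 25 dpp against 58.3 and 54.8 CPM at 19 dpp, a log2 fold change of -1.34 (SE 0.223, adjusted p = 0.00224). Mei4 changed by -1.21 (SE 0.360, adjusted p = 0.0209) and Mei1 by -0.85 (SE 0.248, adjusted p = 0.0195). Rec114 had -0.80 (adjusted p = 0.0685) and Tex15 -0.42 (adjusted p = 0.0779). In all, 1 of 6 rose and 3 of 6 fell, where 34.9% of all genes rose and 25.4% fell. Scaled to the Sertoli markers, Mei1 (0.08), Rec114 (0.11) and Tex15 (0.50) turned to higher at 25 dpp in WT and none of these 3 passed, where 51.0% of all genes rose and 1.63% fell. With prophase scaling Spo11 (0.35, adjusted p = 0.516 in edgeR) lost its call and the other 5 fell. Of 23353 genes 5307 rose and 7355 fell under that scaling. With total counts 0 of the 6 rose and 5 fell, where 6297 of all genes rose and 9716 fell. The call of Spo11 ended without WT replicate 1 at 19 dpp (adjusted p = 0.137), without either WT library at 25 dpp (0.0891 and 0.0847) or without either KO library at 25 dpp (0.0541 in both). The call of Mei1 ended without WT replicate 1 at 19 dpp or either WT library at 25 dpp (0.0511 to 0.0867), and that of Mei4 without WT replicate 1 at 19 dpp or at 25 dpp (0.0780 and 0.0808).

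**Figure D3:**
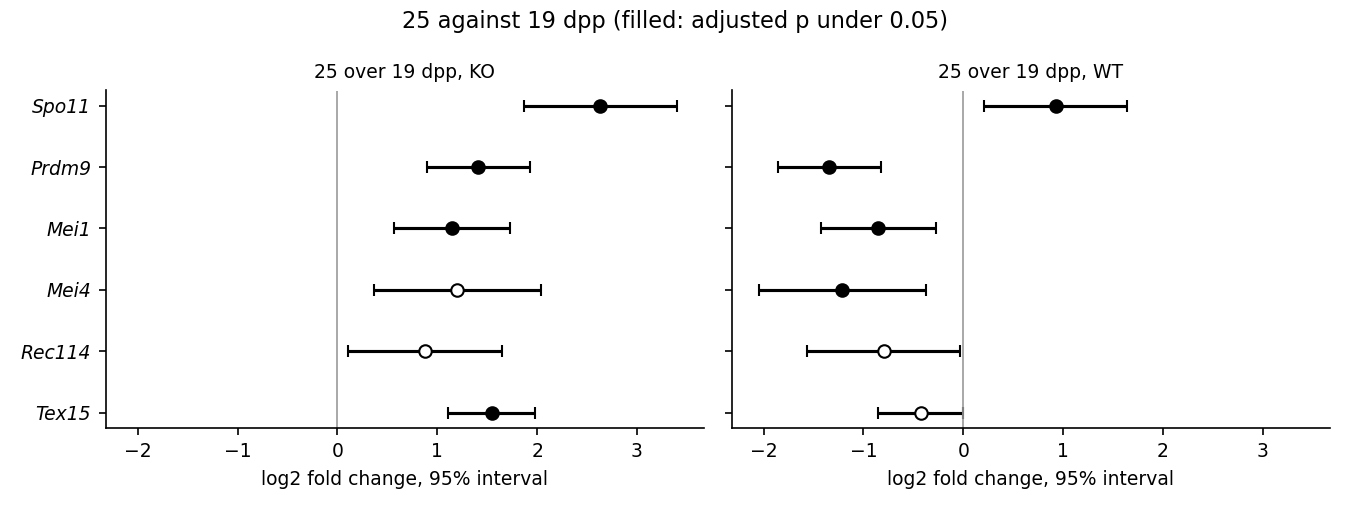
Log2 fold change of 25 over 19 dpp for the 6 genes in KO (left) and WT (right), with 95% intervals; filled points have an adjusted p under 0.05 in edgeR. In KO all 6 lie right of 0 under TMM scaling, whereas in WT Spo11 (0.93) is the only one right of 0.

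These genes act in prophase, and the prophase markers themselves differed between the groups, so each gene was also counted per 1000 counts of the 14 prophase markers in the same library. Spo11 was lower in KO on this measure, with 14.1 and 11.2 in KO against 23.6 and 24.8 in WT at 25 dpp, and 8.34 and 8.70 in KO against 16.7 and 21.4 in WT at 19 dpp. The other 5 genes were higher in KO at both ages, and in none of the 6 did the KO and WT libraries overlap. The share of all genes with no overlap on this measure was not counted. Prdm9 had 32.2 and 30.4 in KO against 5.14 and 6.00 in WT at 25 dpp. At 19 dpp Prdm9 had 57.3 and 46.8 in KO against 24.0 and 19.0 in WT. Mei1 had 13.3 and 11.4 in KO against 5.33 and 5.31 in WT at 25 dpp, and 25.3 and 22.9 in KO against 17.3 and 12.1 in WT at 19 dpp. The 3 genes of lowest and highest count followed the same direction. Mei4 had 1.55 and 1.504 in KO against 0.385 and 0.508 in WT at 25 dpp, and 2.98 and 2.76 in KO against 1.84 and 1.33 in WT at 19 dpp. Rec114 had 3.13 and 1.83 in KO against 0.803 and 1.02 in WT at 25 dpp, and 5.79 and 5.46 in KO against 2.75 and 2.09 in WT at 19 dpp. Tex15 had 164 and 175 in KO against 55.2 and 52.2 in WT at 25 dpp, and 330 and 211 in KO against 115 and 104 in WT at 19 dpp.

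**Figure D4:**
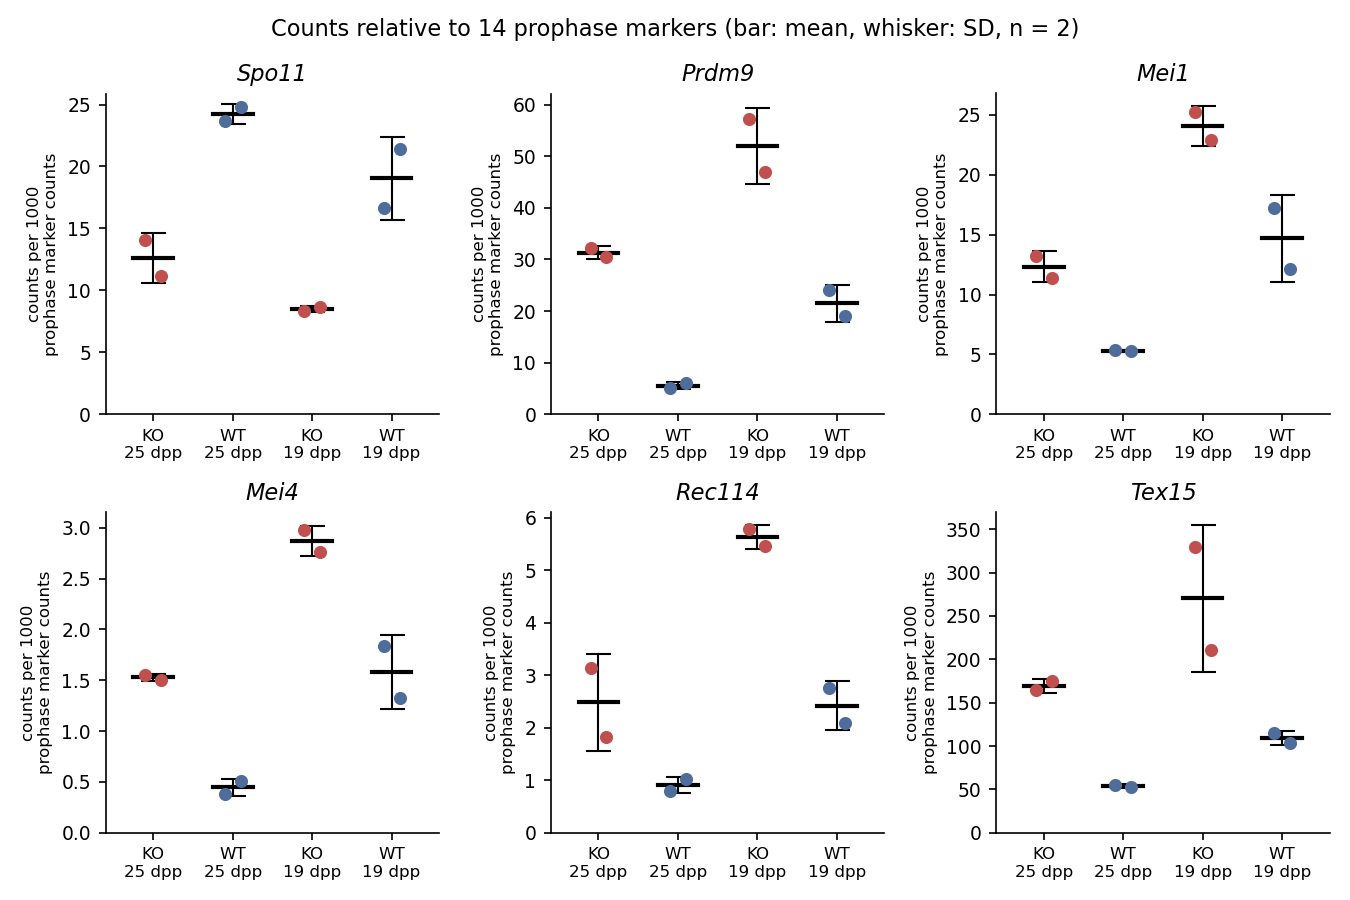
Counts of each gene per 1000 counts of the 14 prophase markers (linear axis from 0) in the 8 libraries, with KO in red and WT in blue; points are libraries, bars are means and whiskers are SD (n = 2). Spo11 is lower in KO than in WT at both ages (12.6 against 24.2 at 25 dpp, 8.52 against 19.0 at 19 dpp), and the other 5 genes are higher.

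A fit with libraries scaled to these markers gave the test of this measure. At 25 dpp Prdm9 (2.49), Mei4 (1.77), Tex15 (1.66), Rec114 (1.44) and Mei1 (1.21) rose on the log2 scale, with adjusted p-values between 2.69e-07 and 0.0233, where 26.1% of all genes rose and 26.6% fell. Spo11 had -0.94 (SE 0.454, adjusted p = 0.0684). At 19 dpp Spo11 fell, with -1.16 (SE 0.462, adjusted p = 0.0176), where 3.66% of all genes fell and the median of all genes was 1.96. Prdm9 (1.28), Tex15 (1.31) and Rec114 (1.21) rose, and Mei4 (0.86) and Mei1 (0.71) did not pass. The rises at 19 dpp are not above the background, since 71.1% of all genes rose under this scaling, and the members' median of 1.04 was below that of all genes. With TMM scaling again, the spermatogonial markers summed to 616 and 620 CPM in KO against 246 and 315 CPM in WT at 25 dpp. Of the 10, 9 rose, where 26.1% of all genes rose. At 19 dpp they summed to 506 and 696 CPM in KO against 787 and 622 CPM in WT. Under TMM scaling 1 of 10 rose and 1 fell, where 8.80% of all genes rose and 13.2% fell. Under prophase scaling all 10 rose at 19 dpp, where 71.1% of all genes rose. The markers of pachytene and diplotene, the later stages of prophase, summed to 414 and 805 CPM in KO against 9386 and 6885 CPM in WT at 25 dpp. At 19 dpp they summed to 102 and 123 CPM in KO against 562 and 1505 CPM in WT. All 8 fell at both ages under TMM scaling, where 37.4% of all genes fell at 25 dpp and 13.2% at 19 dpp. Under prophase scaling 7 of the 8 fell and 0 rose at 25 dpp, where 26.6% of all genes fell. At 19 dpp 6 fell and 2 rose under it, where 3.66% of all genes fell and 71.1% rose. The part of these cells in the levels of the 6 genes was not tested.

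A list of 8 further genes of the break machinery was drawn up, of which 7 had a row under the symbol used. It was made with earlier results of these data known. At 25 dpp 2 of 7 rose, 1 fell and 4 did not pass, where 26.1% of all genes rose and 37.4% fell. Zcwpw1, a reader of the marks that PRDM9 writes, had 184 and 226 CPM in KO against 76.2 and 91.7 CPM in WT, a log2 fold change of 1.29 (SE 0.262, adjusted p = 0.00415). Hells, a chromatin remodeller that works with PRDM9, had 178 and 249 CPM in KO against 95.2 and 112 CPM in WT and rose by 1.04 (SE 0.292, adjusted p = 0.0167). Ewsr1, an RNA-binding protein that binds PRDM9, had 388 and 402 CPM in KO against 731 and 669 CPM in WT and changed by -0.83 (SE 0.116, adjusted p = 8.95e-04). With Sertoli scaling 5 of the 7 fell at this age and none rose, which is near the background, since 70.8% of all genes fell and 0.976% rose under it. Ccdc36, the gene of IHO1, had 0.21, Ankrd31, a partner of REC114, -0.45, Trip13, an ATPase that removes HORMA proteins from synapsed axes, 0.21, and Cxxc1, a CpG-binding protein that binds PRDM9, -0.28, and none of these 4 passed.

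At 19 dpp 5 of the 7 fell and none rose under TMM scaling, where 13.2% of all genes fell, whereas with prophase scaling all 7 were higher in KO and 5 rose. The second count is near the background of that scaling, in which 71.1% of all genes rose. Ankrd31 had 18.2 and 32.1 CPM in KO against 73.9 and 113 CPM in WT, a log2 fold change of -1.89 (SE 0.349, adjusted p = 0.0132). Ccdc36 had 12.9 and 18.3 CPM in KO against 39.4 and 36.3 CPM in WT and changed by -1.28 (SE 0.238, adjusted p = 0.0118). Zcwpw1 (-1.04), Trip13 (-0.89) and Cxxc1 (-0.49) fell as well, and Hells (-0.88, adjusted p = 0.0705) and Ewsr1 (-0.20, adjusted p = 0.248) did not pass. The median of the 7 was -0.89, close to the -0.88 of the 6 genes, and was 0.21 against 1.12 at 25 dpp.

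Genes that act at or after the break were described with 3 further lists. The meiotic axis, the protein core along which the break machinery assembles, had 7 of 8 genes that fell at 19 dpp, where 13.2% of all genes fell. Sycp2 (-2.38) and Hormad2 (-2.30) had the lowest p, and Rec8, a meiotic cohesin subunit, was the exception with 0.26 (adjusted p = 0.655). At 25 dpp 1 of the 8 rose, Rad21l (2.02), and 2 fell, Rec8 (-1.11) and Stag3 (-0.84), under TMM scaling, neither share above that of all genes (26.1% and 37.4%). Hormad1 (0.10) and Smc1b (-0.37) had the highest p at that age. Rad21l, which encodes another meiotic cohesin subunit, had 27.2 and 44.1 CPM in KO against 8.02 and 9.51 CPM in WT at 25 dpp, and 8.22 and 13.1 CPM in KO against 28.7 and 20.0 CPM in WT at 19 dpp, a change of side like that of Prdm9. All 8 axis genes are among the 14 prophase markers.

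Break sensing and end processing had 4 of 8 genes that fell at 19 dpp under TMM scaling, where 13.2% of all genes fell. Mdc1 (-1.70) and H2afx (-1.35), which mark chromatin around breaks, had the lowest p. Nbn (-0.20) and Mre11a (-0.22), of the complex that trims SPO11 from the ends, had the highest p. At 25 dpp 3 of 8 rose and 2 fell, against 26.1% and 37.4% of all genes. Atm, the kinase that answers breaks and limits their number, had 150 and 176 CPM in KO against 48.9 and 61.9 CPM in WT, a log2 fold change of 1.56 (SE 0.164, adjusted p = 3.83e-04). Rad50 (0.65), the third subunit of the trimming complex, also rose under TMM scaling, whereas Nbn (-0.53) and Mre11a (-0.51) fell. H2afx (-0.16) and Rbbp8 (-0.18) did not pass.

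Strand exchange, the search for a partner by the broken end, had 10 of 12 genes that fell at 19 dpp under TMM scaling. Of all genes 13.2% fell. Mcmdc2 and Psmc3ip, both at -2.47, had the lowest p, and Rpa3 (-0.16) and Rpa1 (-0.49) did not pass. At 25 dpp 4 of the 12 rose under TMM scaling, Dmc1 (1.69), Rpa3 (0.81), Brca2 (0.68) and Rpa2 (0.56), against the same 26.1% of all genes. Another 3 fell, Rpa1, Psmc3ip and Hsf2bp (-1.22), against 37.4%. Rpa1, of the complex that coats single-stranded DNA, had 88.1 and 90.9 CPM in KO against 421 and 345 CPM in WT at 25 dpp, a log2 fold change of -2.10 (SE 0.180, adjusted p = 3.08e-04). Psmc3ip, a cofactor of the recombinases, fell at both ages, with -2.08 at 25 dpp (SE 0.314, adjusted p = 0.00132). Spata22 (0.13) and Mcmdc2 (0.14) had the highest p at that age. With Sertoli scaling none of these 3 lists had a gene that rose at 25 dpp, and 6 of 8, 7 of 8 and 10 of 12 fell, against 70.8% of all genes that fell. With total counts, 3 of 8 rose and none fell at 25 dpp in the axis list and in the sensing list alike, where 38.5% of all genes rose and 30.4% fell. With prophase scaling 6 of 8 sensing genes and 4 of 12 strand exchange genes rose at 19 dpp and none fell. Of all genes 71.1% rose and 3.66% fell under it, so 6 of 8 is near the background and 4 of 12 is not above it. The axis genes are among the markers that set this scaling, so their counts under it are not given.

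Between the ages in KO these genes were called in 1 direction under TMM scaling: 3 of 7 partners, 7 of 8 axis genes, 5 of 8 sensing genes and 9 of 12 strand exchange genes rose and none fell, against 10.2% and 8.87% of all genes. Under prophase scaling none of the partners, sensing genes or strand exchange genes rose, and 4 of 7, 7 of 8 and 5 of 12 fell. Of all genes 1.94% rose and 74.6% fell under it. In WT the lists were mixed, with 1 partner that rose and 3 that fell, 2 and 1 in the axis list, 2 and 3 in the sensing list, and 3 and 3 in the strand exchange list, where 34.9% of all genes rose and 25.4% fell. Under TMM scaling the KO effect was higher at 25 dpp than at 19 dpp for 4 of 7 partners and 5 of 8 axis genes. The same held for 5 of 8 sensing genes and 8 of 12 strand exchange genes. It was lower for Ewsr1 and Rpa1, where it was higher for 7.68% of all genes and lower for 11.4%. With Sertoli scaling 0 partners, 2 axis genes, 1 sensing gene and 3 strand exchange genes were higher, and 1 strand exchange gene was lower. Of all genes 0.591% were higher and 9.50% lower under it. With prophase scaling 0 partners, 0 sensing genes and 2 strand exchange genes were higher, and 2, 2 and 1 were lower. Of all genes 0.270% were then higher and 40.5% lower.

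**Figure D5:**
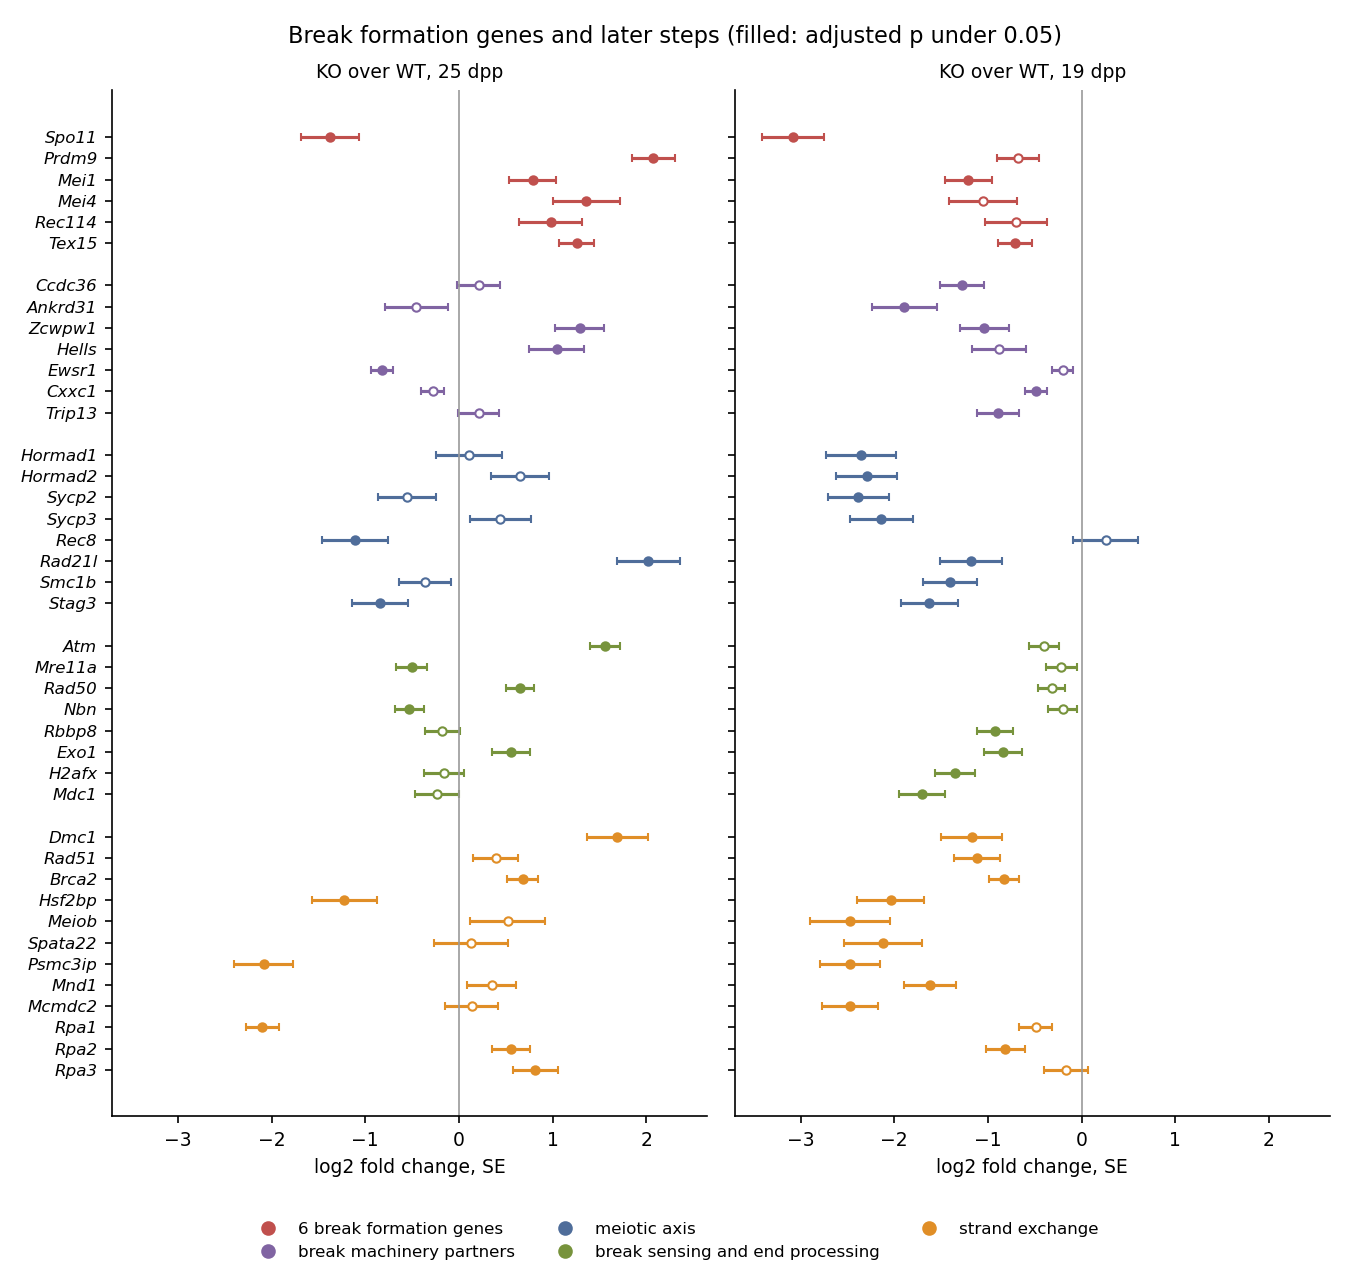
Log2 fold change of KO over WT with SE for the 6 genes (red) and 4 lists of other genes of the pathway (colours in the legend), at 25 dpp (left) and 19 dpp (right), under TMM scaling; filled points have an adjusted p under 0.05 in edgeR. At 19 dpp the called points all lie left of 0, and at 25 dpp they lie on both sides, from Rpa1 (-2.10) to Prdm9 (2.08).

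Across the 8 libraries the 5 genes other than Spo11 had similar profiles. The Pearson correlation of log2 CPM between any 2 of them was between 0.76 and 0.94. The 8 libraries fall in 4 groups and differ in sequencing depth. Between Spo11 and the others it was between -0.02, with Prdm9, and 0.54, with Mei1. The genes whose profile was most like that of Spo11, among 14415 genes with at least 5 CPM in 2 libraries, were Tcam1, Zbtb32 and Rad18 (correlations of 0.998 to 0.999 over 8 libraries). Haus8, Pole and Acer3 were nearest to Mei4, Cenph, Ddx21 and Pramel1 to Mei1, and Eri1, Derl3 and Selk to Tex15. Rbpms2 was second for Prdm9, and Rhox13 and Sohlh2 came first for Rec114, with entries under clone names in the other places. The mean profile of the 6 genes was most like those of Gal3st1, Mki67, Pmaip1, Prss50 and Srgap2 (0.993 to 0.996).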

How the data were processed

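The 8 libraries were made with a TruSeq Stranded mRNA kit from DNase-treated Trizol extracts of whole testis, per the labels' protocols. The deposited values are raw counts per gene, 1 table per library. Per the submitters' processing notes, STAR 2.7.0a, featureCounts 1.5.1 and mm10 were used; the strand setting, the handling of reads with several alignments and the annotation are not given in the sources used here. The 1205 repeat families, 4.10 to 5.68% of counts, were left out.

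Counts were filtered with filterByExpr (23353 genes left, all 6 genes among them), scaled by TMM and fitted with robust quasi-likelihood in edgeR 4.0.16 (R 4.3.3), 1 mean per group, 4 residual degrees of freedom. Genes were called at a Benjamini-Hochberg adjusted p under 0.05. Standard errors were derived from the log2 fold change and its F statistic. The procedure was tested on simulated data. Genes were placed by symbol on GENCODE M21. Replicates differed by more than sampling noise (chi-square of 14.6 to 74.3 per degree of freedom). Alternatives were DESeq2 1.42.0 size factors or Wald test, total counts, Sertoli or prophase marker scaling, 2 other filters, limma-voom (3.58.1), a replicate block, only the libraries compared, and leaving out each library.

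The 6 genes, the lists and the tests were chosen with earlier results of these data known. Of the partner list all genes are named; of the other 3 pathway lists, at each age the 2 of lowest and the 2 of highest p, and Stag3 beside its count after its values were seen. For likeness, the 3 genes of highest correlation per gene and 5 for the mean profile were taken (log2 CPM, prior count 2). Intervals cover the spread between libraries under the fitted model. Replicate 1 and 2 share only a number between groups.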

Additional observations from a re-analysis of the deposited data

Results flagged for a closer look

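Under TMM scaling the effect of KO differed between 25 and 19 dpp for each of the 6 genes and for 5 of the 7 other break machinery genes. This was by the interaction test of edgeR with Benjamini-Hochberg adjustment. Of all genes 7.68% had a higher effect at 25 dpp by that test and 11.4% a lower one. The difference of the log2 fold changes, 25 minus 19 dpp, was 1.71 for Spo11, 2.75 for Prdm9, 2.00 for Mei1, 2.41 for Mei4, 1.68 for Rec114 and 1.97 for Tex15. In Spo11 this was a difference between 2 falls (-1.38 at 25 dpp and -3.08 at 19 dpp), and in the other 5 the sign changed between the ages under TMM scaling. Among the other genes it was 2.33 for Zcwpw1 (adjusted p = 0.00953), 1.92 for Hells (0.0226), 1.49 for Ccdc36 (0.0229), 1.10 for Trip13 (0.0448) and -0.62 for Ewsr1 (0.0368). Ewsr1 was the only one of them whose effect was lower at 25 dpp under TMM scaling. With Sertoli scaling 1 of the 6 genes and 0 of the 7 others passed, where 0.591% of all genes were higher and 9.50% lower. With prophase scaling 0 of the 6 passed in edgeR, and 1 had an unadjusted p under 0.05. Of the 7 others 0 were then higher and 2 lower, where 0.270% of all genes were higher and 40.5% lower.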

How the results depend on the processing

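Scaling changed most. With Sertoli scaling, where the median of all genes was -0.87 at 19 dpp and -1.60 at 25 dpp, all 6 genes fell at 19 dpp, with Prdm9 (-1.57), Mei4 (-1.93) and Rec114 (-1.58) gained. Of all 23353 genes 10186 fell and 73 rose at 19 dpp under this scaling, and 70.8% fell and 0.976% rose at 25 dpp. At 25 dpp 1 was then called, Spo11; Prdm9 had 0.62 (adjusted p = 0.0945), and Mei1 (-0.69), Mei4 (-0.085), Rec114 (-0.50) and Tex15 (-0.21) turned. Of the 6, 1 was called between the ages in WT, where Mei1 (0.084), Rec114 (0.11) and Tex15 (0.50) turned, and 1 for the difference of the KO effects. With prophase scaling, at 19 dpp Prdm9 (1.28), Mei1 (0.71), Mei4 (0.86), Rec114 (1.21) and Tex15 (1.31) turned, and at 25 dpp Spo11 had -0.94 without a call. Between the ages in KO 2 were then called and Prdm9 (-0.73), Mei1 (-0.96), Mei4 (-0.91), Rec114 (-1.18) and Tex15 (-0.67) turned. For the difference of the KO effects 0 of 6 passed in edgeR (1 of 6 at an unadjusted p under 0.05).

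At 19 dpp Prdm9 passed with no filter (-0.70), with at least 5 CPM in 2 libraries (-0.69) and in the DESeq2 Wald test (-0.69), which also called Mei4 (-1.06), 5 in all. In that Wald test 3380 of 23353 genes rose and 4450 fell. Replicate numbers did not pair the samples: deviations correlated by -0.09 to 0.36 between groups. With a replicate block Prdm9 passed at 19 dpp (-0.71, adjusted p = 0.0362).

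Leaving out 1 library, with the lone library assumed to vary like the others, gave 0 to 3 of the 6 called at 19 dpp, 3 to 6 at 25 dpp, 0 to 4 between the ages in KO, 1 to 5 in WT and 3 to 6 for the difference. These counts come from fits with a lone library and show only how far the calls depend on single libraries. They are not read as above the share of all genes called. At 19 dpp the log2 fold change ranged from -3.59 to -2.70 for Spo11 and -0.96 to -0.42 for Prdm9. It ranged from -1.59 to -0.89 for Mei1 and -0.79 to -0.60 for Tex15. At 25 dpp it ranged from 0.67 to 0.89 for Mei1, 1.15 to 1.56 for Mei4 and 0.80 to 1.15 for Rec114.

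All genes called at 19 dpp numbered 5145, against 10259 with Sertoli scaling (73 rose), 17450 with prophase scaling (16596 rose), 7830 in the DESeq2 Wald test and 0 to 5685 without 1 library. Between the ages in KO 4451 were called, against 2413, 17883 and 7318 under those alternatives, 6806 with only the libraries compared and 17 to 4993 without 1 library. For the difference 4464 were called, against 2357, 9530 and 7884, 7517 with total counts (5548 rose), 6724 in limma-voom and 1209 to 5571 without 1 library.

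Signs of the 30 log2 fold changes turned in 7 with Sertoli and 10 with prophase scaling and in none under the other alternatives run. Counts of 35 to 297 per library limit the precision of Mei4 and Rec114. The nearest genes by profile were the same with a prior count of 0.5.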
